A study of Homo sapiens with 3 samples.

Results

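Isolated H3K27ac regions are the acetylated stretches of the LNCaP genome that lie far from any region of H3K4me1. They were selected on position alone, as H3K27ac regions on chromosomes 1 to 22 whose nearest H3K4me1 region was more than 10 kb away, edge to edge. The rule found 2972 such regions among 69160 H3K27ac regions on these chromosomes, which is 4.30% (exact Clopper-Pearson 95% interval 4.15% to 4.45%). They covered 3.56 Mb, or 2.54% of the H3K27ac length. A further 8338 regions (12.1%) shared no base with H3K4me1 but had it within 10 kb, and 57850 (83.6%) overlapped it by at least 1 bp. The distances to H3K4me1 chose the members and are given as description. The share depended on that choice: it was 6.99% with a limit of 5 kb, 2.15% with 20 kb, and 12% when only H3K4me1 regions scored at or below the median of their list counted.

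LNCaP is a human prostate carcinoma line grown from a metastasis and responsive to androgen. The 3 samples were H3K27ac ChIP, H3K4me1 ChIP and an input library made without antibody, all from LNCaP cells, for which the labels name no treatment. For each mark there was 1 library, with 1 file of called regions; the input was not analysed here. The region lists carried no read counts, so their depth is unknown and a place without a called H3K4me1 region may still carry the mark. With 1 library per mark no test between replicates was possible, no p-value was computed, and all intervals cover counting error over regions, which are treated as independent although neighbours are not.

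H3K27ac is written by the acetyltransferases p300 and CBP and marks active promoters and active enhancers. H3K4me1 is written mainly by the methyltransferases KMT2C and KMT2D and marks enhancers, both active ones and those only primed. Active enhancers usually carry both marks, whereas at the start site of an active gene H3K4me1 is usually replaced by H3K4me3 and found to either side. Coordinates are hg19, counted from 1. Genes, promoters and prostate marker genes were not placed on them, since the gene table used here is of another build. Whether isolated regions are promoters was therefore not tested.

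The distance from an isolated region to its nearest H3K4me1 region was 20000 bp at the median, with quartiles of 13750 and 33850 bp, and reached 918.2 kb. Of the members, 1487 (50.0%) lay 10 to 20 kb away, 1093 (36.8%) 20 to 50 kb, 282 (9.49%) 50 to 100 kb and 110 (3.70%) farther. The limit cut through a continuous range. At 10050 bp, the nearest distance inside it on the 50 bp grid of the lists, there were 12 regions, and at 10000 bp, just outside it, there were 15. A member at the limit, on chromosome 1 from 169258101 to 169258950, was 850 bp wide with a score of 0.014. Another, on chromosome 11 from 92418751 to 92419900, was 1150 bp wide with a score of 0.009. Just outside the limit, the region on chromosome 1 from 57153851 to 57155100 was 1250 bp wide with a score of 0.009, and the one from 113124201 to 113125000 was 800 bp wide with a score of 0.021. These 4 regions were 800 to 1250 bp wide on both sides of the limit.

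Acetylated regions grew sparse with distance from H3K4me1 but did not end at the limit. Counted by midpoints, and leaving out stretches of 1 Mb or more without any region, H3K27ac occurred 164 times per Mb inside H3K4me1 regions and 38.4 times per Mb within 1 kb of them. The value was 4.95 per Mb at 5 to 10 kb, 4.14 at 10 to 20 kb, 3.12 at 20 to 50 kb, 1.90 at 50 to 100 kb and 1.11 beyond 100 kb. Across the limit the density went from 4.95 to 4.14 per Mb, and between the first and the second kilobase from 38.4 to 8.92. A region overlapping H3K4me1 can have its midpoint outside it and is then counted here, so the latter drop depends in part on region width. The first kilobase held 12042 midpoints, whereas only 2854 regions without overlap lay within 1 kb edge to edge. A further 1318 lay 1 to 2 kb away. Positions more than 10 kb from H3K4me1 made up 37.4% of the length considered and held 4.54% of the midpoints, or 3.13 per Mb against 25.8 per Mb over all of it.

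**Figure D1:**
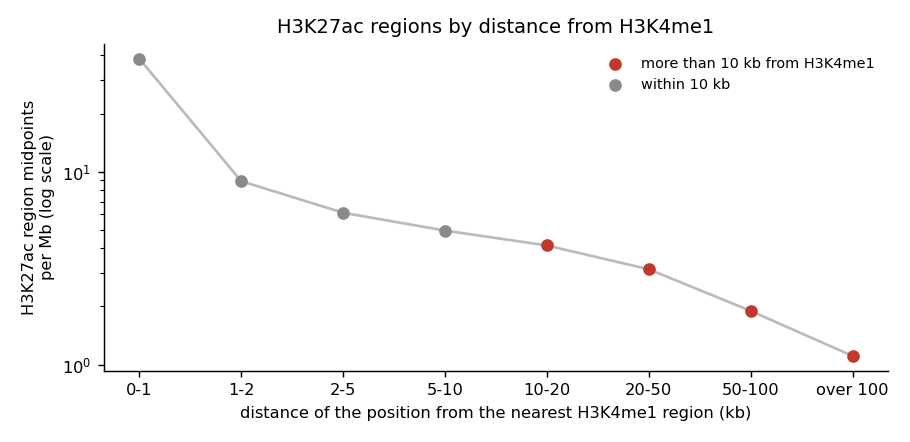
H3K27ac region midpoints per Mb of sequence (log scale) by the distance of the position from the nearest H3K4me1 region in kb, with positions more than 10 kb away in red. The density drops steeply within the first 2 kb and then slowly, with 4.14 per Mb at 10 to 20 kb and 1.11 beyond 100 kb. Midpoints outside H3K4me1 are counted even where their region overlaps it, so the first drop depends in part on region width.

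Long stretches without H3K4me1 were usually also free of H3K27ac beyond the limit. There were 29027 stretches between neighbouring H3K4me1 regions longer than 20550 bp, the shortest length able to hold a member of the narrowest width, and 8.35% of them held at least 1 isolated region. The share was 3.98% for stretches up to 50 kb, which were 19973 of them, and 14.9% between 50 and 100 kb. It was 23.5% between 100 and 200 kb, and 27.6% above 200 kb. Longer stretches have more room over 10 kb from both ends, so a rise with length was set up by the rule. In all, 2425 stretches held the 2970 members that had H3K4me1 on both sides. Most of these, 2011, held a single member, 316 held 2, and the highest number was 8.

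Isolated regions were narrow. Their widths ran from 550 to 6450 bp, and the median was 1050 bp, with quartiles of 750 and 1500 bp. For regions overlapping H3K4me1 it was 1750 bp, with quartiles of 1150 and 2600 bp. Widths under 1 kb were found in 42.9% of isolated regions (41.2% to 44.7%) and 16.5% of overlapping ones (16.2% to 16.8%). Widths of 4 kb or more were found in 10 isolated regions (0.336%) and in 9.33% of overlapping ones. The isolated share of all H3K27ac regions was 8.47% below 750 bp, 5.93% between 1000 and 1500 bp and 0.428% at 3 kb or more. Distances ran edge to edge, so a wider region more easily meets or comes near H3K4me1. These width contrasts are therefore fixed in part by the rule. Regions without overlap but within 10 kb of H3K4me1 were narrower still, with a median of 950 bp. Among the members, width did not follow the distance to H3K4me1: medians were 1050, 1050, 1000 and 1000 bp at 10 to 20, 20 to 50, 50 to 100 and over 100 kb (Spearman's rho -0.0014 over the 2972 members).

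The 5 widest members differed in their surroundings. The widest, on chromosome 8 from 88176601 to 88183050, measured 6450 bp and lay 34.0 kb from H3K4me1. Next in width was chromosome 9 from 104966151 to 104972500, with 6350 bp at 21.7 kb from the mark. The third lay on chromosome 13 from 39596851 to 39601950, with 5100 bp at 22.5 kb. The other two were on chromosome 11 from 89357701 to 89362500, with 4800 bp at 11.2 kb, and on chromosome 6 from 79784951 to 79789700, with 4750 bp at 90.4 kb. The region on chromosome 13 had 2 other H3K27ac regions within 500 kb of its midpoint, and the one on chromosome 8 had 23, so wide isolated regions were found in both empty and moderately filled surroundings.

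The score is a number the authors attached to each region without naming it. For H3K27ac it has 12 levels between 0.001 and 0.048 and is lower in wider regions. It serves here only to rank regions of the same list, with low values taken as more stringent. Isolated regions had low scores less often than H3K27ac regions at large. At or below 0.009, the median of the list, were 852 members (28.7%), against 58.9% of all H3K27ac regions on these chromosomes. The lowest score, 0.001, was carried by 42 members (1.41%, interval 1.02% to 1.90%), against 14.5% of all regions. This was not particular to members: regions within 10 kb of H3K4me1 without overlap had 23.1% and 1.28%. Because score follows width closely (Spearman's rho -0.90 within the members), overlapping regions were weighted so that each width occurred as often as among the isolated ones.

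At equal width the gap in scores was much smaller, with low scores still somewhat less common among isolated than among overlapping regions. A score at or below 0.009 was then found in 28.7% of isolated and 31.8% of overlapping regions, a difference of -3.12 percentage points (normal 95% interval -4.80 to -1.43). At or below 0.001 the shares were 1.41% and 2.09%, a difference of -0.679 points (-1.11 to -0.249). At 0.032 or above they were 15.6% and 15.0%, a difference of 0.653 points with an interval that included 0 (-0.735 to 2.04). The isolated share of low scores was the lower one in each width class from 1 kb upwards. From 1000 to 1500 bp, 23.2% of isolated regions (20.5% to 26.1%) and 28.8% of overlapping ones of the same widths scored 0.009 or less, and from 1500 to 2000 bp it was 76.1% (72.0% to 79.8%) and 82.9%. From 2 to 3 kb the shares were 94.5% (90.8% to 97.0%) and 97.5%, and the lowest score, 0.001, was carried by 7.20% and 13.3%. At 3 kb or more, 97.9% (88.9% to 99.9%) of isolated and 99.4% of overlapping regions scored 0.009 or less. Below 1 kb no region of either kind did. Those widths, 42.9% of members, could show no difference and make the pooled one smaller than in the classes from 1000 to 2000 bp. The isolated share of low scores was the lower one on 19 of the 22 chromosomes. Set beside regions that had H3K4me1 within 10 kb but no overlap, isolated regions of equal width scored low slightly more often, 28.6% and 27.4%, and this difference of 1.16 points had an interval that included 0 (-0.778 to 3.10). The interval thus lay below 0 beside overlapping regions and spanned 0 beside other regions without H3K4me1.

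**Figure D2:**
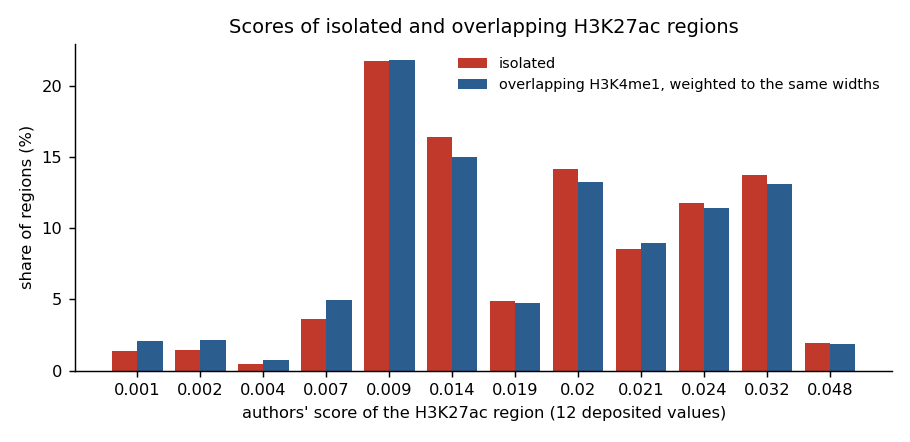
Share of regions (%) at each of the 12 deposited score values, for isolated H3K27ac regions in red and for regions overlapping H3K4me1, weighted to the same widths, in blue. The bars differ little, with fewer isolated regions at the 4 lowest scores and 21.7% and 21.8% at 0.009.

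The members with the lowest score were among the widest. They included the regions of chromosomes 9 and 6 named above, a region of 4650 bp on chromosome 2 from 61107701 to 61112350, one of 4500 bp on chromosome 11 from 10877551 to 10882050 and one of 4100 bp on chromosome 4 from 175202751 to 175206850. Their distances to H3K4me1 were 21.7, 90.4, 15.5, 10.9 and 12.6 kb. Among the 48 members of 3 kb or more, 23 had the lowest score (47.9%), against 58.5% of overlapping regions at equal width.

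Isolated regions stood apart from other H3K27ac regions as well as from H3K4me1. Their nearest other H3K27ac region was a median of 23350 bp away (quartiles 11900 and 48000 bp), against 6200 bp (1800 and 17500 bp) for overlapping regions of the same widths. Another H3K27ac region within 12500 bp was present for 793 isolated regions (26.7%, interval 25.1% to 28.3%), against 67.1% at equal width and 69.0% of all H3K27ac regions. Within 10 kb the rule itself removes neighbours that carry H3K4me1, so spacing at that range is fixed in part by the choice of members.

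The surroundings were also sparser beyond that range. Between 20 and 100 kb from its edges an isolated region had a mean of 3.73 other H3K27ac regions, against 6.45 for overlapping regions of the same widths, a difference of -2.73 (normal 95% interval -2.86 to -2.59) and a ratio of 0.578. With chromosomes weighted to be equal too, the comparison mean was 6.15 and the difference -2.42 (-2.56 to -2.28). The isolated mean was the lower one on 22 of 22 chromosomes. Regions within 10 kb of H3K4me1 that shared no base with it had 6.58 such neighbours at equal width, close to the overlapping ones. The measure is not free of the rule, which selects places poor in H3K4me1.

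Some members had little company of any kind. No other H3K27ac region lay within 50 kb of 710 isolated regions (23.9%, interval 22.4% to 25.5%), against 7.12% of overlapping regions at equal width and 6.42% of all H3K27ac regions. Within 100 kb, 292 members were alone (9.83%), against 2.19% at equal width. Both counts take in the first 10 kb, where the rule removes neighbours that carry H3K4me1. These contrasts are therefore fixed in part by the choice of members. At up to 10 kb, 19.3% of isolated and 61.7% of overlapping regions at equal width had a neighbour.

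**Figure D3:**
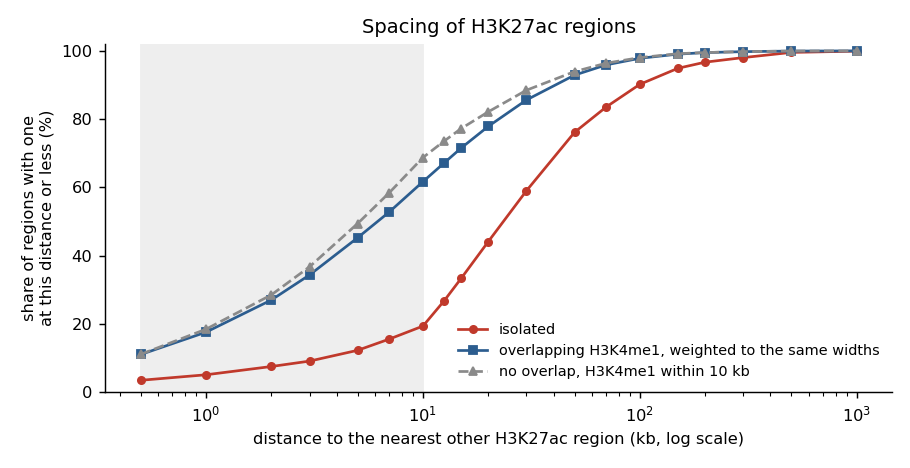
Share of regions (%) that have another H3K27ac region at or below a given distance in kb (log scale), for isolated regions (red circles), overlapping regions weighted to the same widths (blue squares) and regions without overlap within 10 kb of H3K4me1 (grey triangles). Grey shading marks distances up to 10 kb, where the rule bears directly on the values. The curves are cumulative, so points beyond 10 kb still carry that effect. At 10 kb the curves stand at 19.3% for isolated and 61.7% for overlapping regions. The isolated curve runs lowest and reaches 76.1% at 50 kb, where the overlapping curve is at 92.9%.

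Over wider surroundings, the median number of other H3K27ac regions within 500 kb of the midpoint was 20 for isolated regions (quartiles 12 and 30) and 35 for overlapping regions of the same widths (24 and 46). The isolated median was lower on each of the 22 chromosomes. Read the other way, 26.0% of H3K27ac regions with 5 or fewer others within 500 kb were isolated (23.2% to 28.9%, 248 of 955), against 9.76% with 11 to 20, 3.67% with 21 to 40 and 1.27% with 41 to 80 others. The count takes in the first 10 kb, and the rule selects places poor in H3K4me1. Neither reading is therefore free of the rule. Median widths of the members differed little, with 1000 bp at 5 or fewer others and 1050 bp at 21 to 40. Their median distances to H3K4me1 in these classes were 43.9 and 17.2 kb.

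Neighbours of isolated regions were themselves more often without H3K4me1. Of the H3K27ac regions 20 to 100 kb from a member, 10.5% were isolated, 21.1% were within 10 kb of H3K4me1 without overlap and 68.4% overlapped it. Around overlapping regions of the same widths and chromosomes the shares were 2.62%, 12.3% and 85.1%. The single nearest H3K27ac region was isolated for 30.7% of members and for 3.0% of those overlapping regions. Close neighbours share most of their distance to H3K4me1, so the last pair of values is fixed in part by the rule, and the values at 20 to 100 kb less directly so. The nearest H3K4me1 region more than 10 kb away was also less often among the lowest scored. Its H3K4me1 score was 0.003 or less for 18.6% of isolated and 27.9% of overlapping regions at equal width. Among all H3K4me1 regions on these chromosomes the share was 27.9%. The compared H3K4me1 regions lay at unlike median distances, 20000 bp from isolated and 12900 bp from overlapping regions. Their own median widths also differed, at 950 and 1050 bp, and were not made equal. Whether width accounts for the gap in H3K4me1 scores was not tested.

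Joining isolated regions at most 12500 bp apart gave 2700 groups, of which 2479 were single regions, 183 pairs, 30 groups of 3, 6 groups of 4 and 2 larger ones. In all, 493 members (16.6%, interval 15.3% to 18%) were joined to another, with a median gap of 3250 bp. Close neighbours share most of their distance to H3K4me1, so this share is fixed in part by the rule. No like share was computed for overlapping regions. Any other H3K27ac region within 12500 bp was present for 26.7% of members and 69.0% of all H3K27ac regions. With joining at 5 kb the share was 10.5%, and it was 7.63% when only H3K27ac regions scored at or below the median of their list were counted. Joined and single members had the same median width of 1050 bp, and low scores were carried by 29.2% and 28.6% of them.

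The largest group lay on chromosome 2 from 215613101 to 215628950, where 8 isolated regions covered 7550 of 15850 bp. They were 950, 1050, 750, 700, 950, 1150, 850 and 1150 bp wide, with scores from 0.014 to 0.021, and lay 12300 to 18150 bp from H3K4me1. All sat in a single stretch without H3K4me1 of 41.4 kb, from 215600801 to 215642150, which held 18 H3K27ac regions covering 41.2% of its length. The other 10 were nearer to the ends of the stretch and so missed the limit. H3K27ac regions overlapping H3K4me1 followed on both sides. The group was thus the middle of a densely acetylated tract with H3K4me1 at its flanks.

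The next group, on chromosome 5 from 86673501 to 86697150, held 5 narrow regions of 550 to 900 bp with scores of 0.021 to 0.048, the high end of the list. They lay 10450 to 20850 bp from H3K4me1. The third, on chromosome 6 from 49630451 to 49645900, was of another kind, with 4 regions covering 8050 bp of 15450 bp, scores of 0.002 to 0.009 and at least 32600 bp to the nearest H3K4me1. No other H3K27ac region lay within 60 kb of the middle of that group. The fourth and the fifth, on chromosome 4 from 60491651 to 60507450 and chromosome 6 from 48578901 to 48608000, held 4 regions each, covering 7000 and 5600 bp.

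**Figure D4:**
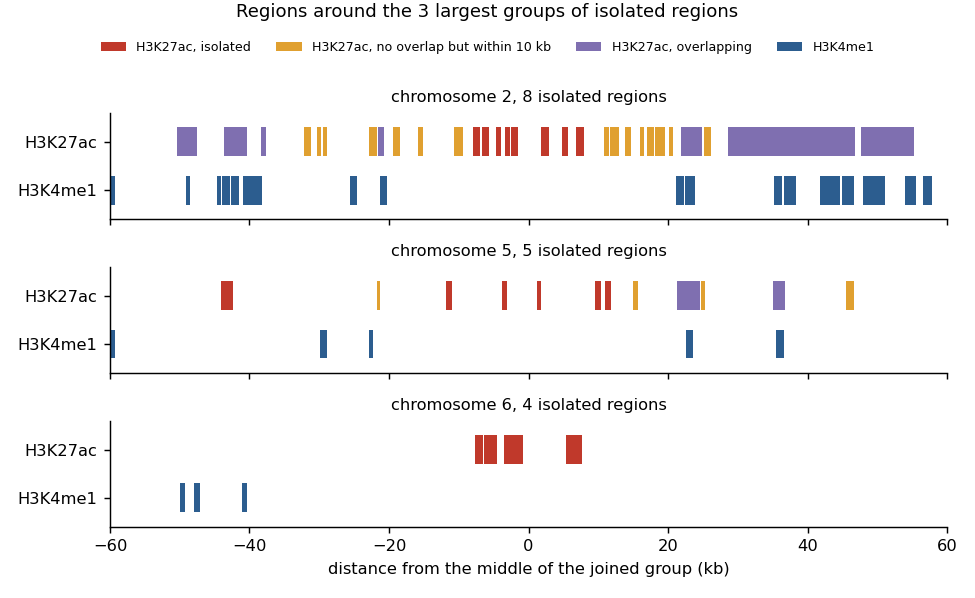
Called regions within 60 kb of the middle of the 3 largest groups of isolated H3K27ac regions, with H3K27ac above and H3K4me1 below and position given as distance in kb. The 8 isolated regions of chromosome 2 (red) continue into H3K27ac regions nearer to H3K4me1 (orange) and overlapping it (violet), while the 4 of chromosome 6 have no other H3K27ac region in view.

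Members were spread unevenly. Of 2689 windows of 1 Mb with H3K27ac, 1387 (51.6%) held an isolated region, 638 of them a single one. The 115 windows with 5 or more held 699 members (23.5%). In 29 windows every H3K27ac region was isolated. The windows with most members were chromosome 9 from 83000001 to 84000000, with 12 of 27 H3K27ac regions isolated, chromosome 2 from 215000001 to 216000000, with 12 of 56, and chromosome 4 from 70000001 to 71000000, with 10 of 31.

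The isolated share differed widely between chromosomes. It was highest on chromosome 13, at 12.7% (11% to 14.6%, 170 of 1339), followed by chromosome 18 at 12.6% (10.7% to 14.7%, 133 of 1056) and chromosome 4 at 9.77% (8.83% to 10.8%, 358 of 3664). The next, chromosome 6, had 5.46%. The lowest shares were 1.01% on chromosome 22 (0.484% to 1.84%, 10 of 993) and 1.41% on chromosome 17 (1.0% to 1.92%, 39 of 2765). Chromosomes 4, 13 and 18 together held 22.2% of isolated regions and 8.76% of all H3K27ac regions. Per Mb of sequence the members ranged from 0.286 on chromosome 22 to 1.90 on chromosome 4, with 1.87 on chromosome 13 and 1.78 on chromosome 18. These 3 chromosomes thus had more isolated regions per Mb as well as a higher share.

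**Figure D5:**
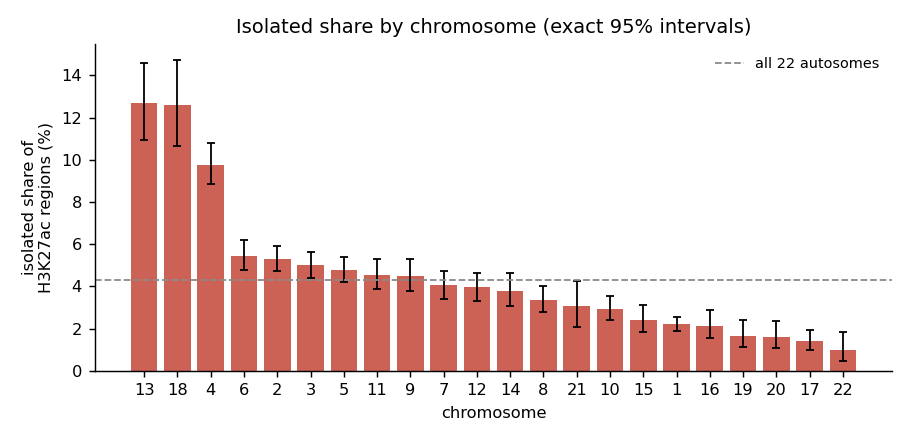
Isolated share of H3K27ac regions (%) on each of the 22 autosomes, in falling order, with exact 95% intervals; the dashed line is the share over all of them. Chromosomes 13, 18 and 4 stand above the rest, at 12.7%, 12.6% and 9.77%.

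Over the chromosomes the share was lower where H3K4me1 regions were denser (Spearman's rho -0.88, n = 22 chromosomes, with H3K4me1 in the rule itself) and where H3K27ac regions were denser (rho -0.75). The number of H3K27ac regions is also the denominator of the share, so the second value is built in to a degree. For isolated regions per Mb against H3K27ac regions per Mb, rho was -0.65. Chromosome 13 had 33.8 and chromosome 18 had 31.6 H3K4me1 regions per Mb, against 116 on chromosome 17. Copy number was not corrected for, and its part in these differences was not tested. The 110 members more than 100 kb from H3K4me1 were the most concentrated, with 56.4% of them on chromosomes 4, 13 and 18, against 18.1% of those 10 to 20 kb away.

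Regions without H3K4me1 overlap, isolated ones among them, were scarce near the outermost called regions of chromosomes, which need not lie at the chromosome ends. Within 5 Mb of the first or last called region of a chromosome lay 79 members (2.66%, interval 2.11% to 3.30%), against 4.43% of regions within 10 kb without overlap, 9.43% of overlapping regions of equal width and 8.97% of all H3K27ac regions. At equal width the difference was -6.77 percentage points beside overlapping regions (-7.43 to -6.11) and -1.68 beside those within 10 kb (-2.41 to -0.945). With chromosomes weighted to be equal too, the difference from overlapping regions was -6.91 points (-7.64 to -6.19). Within 1 Mb of a stretch of 1 Mb or more without any region lay 69 members (2.32%, 1.81% to 2.93%), against 1.81% of regions within 10 kb without overlap, 1.35% of overlapping regions at equal width and 1.28% of all regions. Beside regions within 10 kb of equal width the difference was 0.614 points, with an interval of 0.0046 to 1.22. The share near such a stretch was 1.55% among members 10 to 20 kb from H3K4me1 and 6.36% among the 110 beyond 100 kb. These stretches are by definition also without H3K4me1, so the contrasts near them and the rise with distance are fixed in part by the rule.

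The members farthest from H3K4me1 were of ordinary size. The first was on chromosome 13 from 68919551 to 68920800, 1250 bp wide, with a score of 0.014, 918.2 kb from H3K4me1 and 681.9 kb from other H3K27ac. The next were on chromosome 13 from 81715951 to 81717250 at 666.8 kb from H3K4me1 and on chromosome 9 from 43544601 to 43545850 at 524.2 kb. The fourth and the fifth were chromosome 13 from 75445251 to 75446200, at 521 kb, and chromosome 9 from 41953951 to 41955450, at 479.3 kb. Their widths ran from 950 to 1500 bp. Both regions on chromosome 9 bordered a stretch of 1 Mb or more without any region, whereas the 3 on chromosome 13 were more than 9 Mb from one. The region at 41953951 carried a score of 0.002, which 43 of the 2972 members had.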

How the data were processed

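ChIP-seq of H3K27ac and H3K4me1 in LNCaP was analysed from the region lists the authors deposited, 1 per mark. The submitters' processing notes name Bowtie 0.12.8 and the build hg19. How regions were called, at what threshold and with what use of the input is not given in the sources used here. These choices set which regions are listed and how wide they are. Each deposited list gives a chromosome, start, end and an unnamed score per region, with positions on a 50 bp grid. Starts were read as 0-based. Mitochondrial regions were left out.

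Distances were taken edge to edge. Overlapping regions were weighted, without random draws, to the widths of the isolated ones by exact width class (all 2972 had a counterpart; with chromosome added, 1 had none). Shares have exact Clopper-Pearson 95% intervals and weighted differences have normal ones. Density by distance was read every 500 bp. The distance and overlap functions were checked on simulated regions.

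Members, comparisons and the named regions (the widest, farthest, lowest scored, those at the limit, the largest groups, windows and chromosomes) were chosen with earlier results of these data known. No genome or annotation of this build was used, so genes and sequences are not reported and the planned comparisons with start sites were not run. Alternatives were other distance limits, score limits, overlap, weighting, merging, joining and chromosomes. Software was scipy 1.17.1, numpy 2.4.6 and pandas 2.3.3 under Python 3.11.15, and matplotlib 3.10.9 for figures.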

Additional observations from a re-analysis of the deposited data

How the results depend on the processing

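Of 37 alternative values, 13 stayed within the interval of the reported value, 23 moved out of it and 1 changed sign. Settings with H3K4me1 scores under 0.05, and those without chromosomes 4, 13 and 18, were chosen after seeing the data.

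The isolated share, 4.30%, was 6.99% with a limit of 5 kb, 2.15% with 20 kb, 12% with H3K4me1 scores at or below the median, 6.67% with H3K4me1 scores under 0.05, 2.09% with H3K27ac scores at or below the median, 4.69% with chromosome X, 4.62% after merging H3K27ac within 1 kb and 3.66% without chromosomes 4, 13 and 18. The number of members thus rests on the limit and on the scores allowed in either list. The share of low scores at equal width, a difference of -3.12 points, became 1.16 beside regions within 10 kb without overlap, and its interval also included 0 with a limit of 20 kb (-2.20). For this change of sign the cause was not tested.

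The difference in neighbours 20 to 100 kb away, -2.73, was -2.02 with a limit of 5 kb, -3.75 with 20 kb, -2.42 with the same widths and chromosomes, -2.07 with H3K4me1 scores at or below the median and -2.49 with scores under 0.05. The difference in medians within 500 kb, -15, was -12 with a limit of 5 kb, with same widths and chromosomes, with H3K4me1 scores at or below the median and beside regions within 10 kb without overlap, -19 with 20 kb and -13 with scores under 0.05. The joined share, 16.6%, was 10.5% with a joining distance of 5 kb, 14.7% with a limit of 20 kb, 7.63% with H3K27ac scores at or below the median and 19.7% with H3K4me1 scores under 0.05. No paired analysis was possible because there is 1 library per mark. Depth is unknown, so a missing H3K4me1 region does not show absence of the mark.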
